A study of Mus musculus with 6 samples.

Results

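The transcripts of 9 IRF and STAT transcription factors were measured in mouse haematopoietic stem cells (HSCs), with and without the cell cycle kinase CDK6. The genes were Irf1, Irf2, Irf3, Irf5, Irf7, Irf9, Stat2, Stat3 and Stat6, chosen by name and represented by 13 of the 55681 probes on the array. All 9 genes and all 13 probes passed the filter on dim signal, and they make up 9 of the 22630 genes tested. After polyI:C, Irf7 was the member that passed the test: it was 11.0-fold above its untreated level in Cdk6-/- cells, and in the wild-type pools its 2 levels were 12.3-fold apart. Between genotypes, 1 of the 9 genes passed the test: Stat6 was lower in Cdk6-/- cells when untreated, on 2 of its 3 probes. A count of 1 is near the background, since 13.0% of all genes were called there, and the call depended on the normalization and on single arrays.

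Each of 6 two-colour Agilent arrays carried RNA of Cdk6-/- bone marrow HSCs, labelled with Cy5, next to Cy3-labelled RNA from a wild-type pool of sorted HSCs given the matching treatment. The groups were 3 untreated Cdk6-/- samples set against pool 1 (untreated wild type) and 3 Cdk6-/- samples treated with polyI:C, an artificial double-stranded RNA used to trigger an interferon response, set against pool 2 (polyI:C-treated wild type). Per the series' design the samples of a treatment are biological replicates, while each pool is 1 control sample hybridised 3 times, so that its spread is technical. The standard errors (SE), intervals and p-values of genotype ratios and of their differences therefore leave out the spread between wild-type samples. The dose, the time after injection, the strain, the age and the number of mice per sample or pool are not given in the sources used here, and neither is how the Cdk6 allele was made. No dye was swapped, so a dye bias of a probe cannot be told apart from a genotype difference, but it cancels where treatments are compared within 1 channel or as a difference of ratios.

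Interferon regulatory factors bind interferon-stimulated response elements (ISREs) in DNA. Double-stranded RNA activates IRF3 and IRF7 through the kinases TBK1 and IKKε, and these induce type I interferon. The interferon receptor then signals through JAK kinases to STAT2, which joins IRF9 in ISGF3, a complex that binds ISREs and raises interferon-stimulated genes, Irf7 among them. STAT dimers bind a shorter palindromic site called GAS, as STAT3 does downstream of IL-6 family cytokines. STAT6, activated by IL-4 and IL-13, prefers the same palindrome with 1 more base in its spacer. Type I interferon and polyI:C are known to drive dormant HSCs into the cell cycle.

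The promoter windows of the members were searched for these sites to show which of them carry one next to the start of transcription. RefSeq windows (build GRCm38.p6) from 250 bases before to 50 bases after an annotated start were found for 9 of 9 members, 11 windows in all. The motifs, read on both strands, were the ISRE core (GAAA repeated after any 2 bases), GAS (TTC and GAA with any 3 bases between) and the STAT6 spacing (TTC and GAA with any 4 bases between). The ISRE core was present in 3.44% of 32851 windows of all genes, GAS in 8.3% and the STAT6 spacing in 6.95%. The 250 upstream bases of 4 members are printed 5′ to 3′ on the gene's strand with each match in capitals: Irf7, the member that rose with polyI:C, Stat2 and Irf2, which hold an ISRE core, and Irf1, which holds a GAS match. The regions are chr7:141266425-141266674 on the minus strand for Irf7, and on the plus strand chr10:128270248-128270497 for Stat2, chr8:46739495-46739744 for Irf2 and chr11:53769764-53770013 for Irf1.
Irf7 upstream region: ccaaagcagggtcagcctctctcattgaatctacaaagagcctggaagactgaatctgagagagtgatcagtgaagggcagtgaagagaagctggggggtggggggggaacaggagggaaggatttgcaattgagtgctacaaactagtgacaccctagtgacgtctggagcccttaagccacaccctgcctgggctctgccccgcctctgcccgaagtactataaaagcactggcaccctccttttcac
Stat2 upstream region: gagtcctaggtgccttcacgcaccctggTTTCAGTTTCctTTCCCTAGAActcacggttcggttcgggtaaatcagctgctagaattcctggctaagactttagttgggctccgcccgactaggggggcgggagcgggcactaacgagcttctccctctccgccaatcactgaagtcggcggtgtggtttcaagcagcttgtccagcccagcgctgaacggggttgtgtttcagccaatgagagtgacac
Irf2 upstream region: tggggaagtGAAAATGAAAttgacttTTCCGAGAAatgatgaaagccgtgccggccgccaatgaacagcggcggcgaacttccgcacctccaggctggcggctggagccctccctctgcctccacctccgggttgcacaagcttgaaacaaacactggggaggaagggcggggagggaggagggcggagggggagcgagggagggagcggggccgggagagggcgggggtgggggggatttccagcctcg
Irf1 upstream region: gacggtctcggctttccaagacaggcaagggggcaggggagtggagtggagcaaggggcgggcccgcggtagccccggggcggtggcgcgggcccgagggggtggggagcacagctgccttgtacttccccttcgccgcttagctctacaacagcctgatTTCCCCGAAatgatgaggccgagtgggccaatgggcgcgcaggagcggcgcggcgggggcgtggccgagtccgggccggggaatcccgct

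Stat2 had an ISRE core, GAAACTGAAA on the minus strand at -222 to -213 from the start, and a STAT6-spaced site, TTCCCTAGAA at -210 to -201. Irf2 had an ISRE core, GAAAATGAAA at -241 to -232, and a GAS match, TTCCGAGAA at -224 to -216. Irf1 had GAS as TTCCCCGAA at -90 to -82 of its first start, and Irf9 had the STAT6 spacing TTCCTGGGAA at 2 to 11 from its first start. The windows of Irf3, Irf5, Irf7, Stat3 and Stat6 held none of the 3 sets of letters, so the member with the strongest rise is not one with a match in this window. A match is a description of these letters and not a measured binding site.

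**Figure D1:**
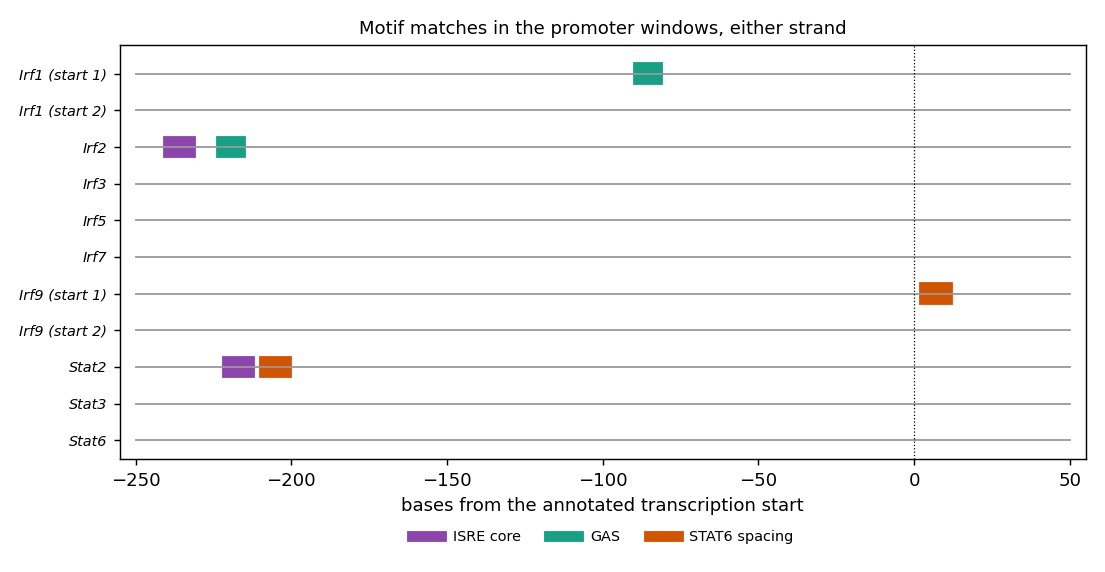
Motif matches in the 11 RefSeq promoter windows of the 9 genes. The x axis is the distance in bases from the annotated transcription start, each grey line is 1 window, and coloured blocks mark matches on either strand. Irf2 and Stat2 hold an ISRE core, and the line of Irf7 is empty.

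The arrays were similar in signal except for 1. Between 47.0 and 76.5% of 59305 spots were well above background in Cy5 and between 54.4 and 75.6% in Cy3, with both maxima on polyI:C array 3. Across genes, the Pearson r of its ratios with polyI:C arrays 1 and 2 was 0.13 and 0.22. The r was 0.56 between arrays 1 and 2 and 0.49 to 0.54 among untreated arrays. PolyI:C array 3 was alone on slide 3, untreated arrays 1 and 3 and polyI:C array 1 shared slide 1, and untreated array 2 and polyI:C array 2 shared slide 2. The log2 ratio of Xist, the RNA of the inactive X chromosome, was below 0 on untreated array 3 (-3.98) and polyI:C array 3 (-3.42) and between 0.42 and 1.87 on the other 4 arrays. Values without 1 of these 2 arrays, or ranges over the omissions of 1 array, are given for some of the results below. All 10 HSC marker genes were above background and none was called in limma in any comparison (5 of 10 had an unadjusted p under 0.05 between treatments, with a median of -0.66). All 8 B cell, 10 granulocyte and 10 erythroid markers tested were also above background on at least 1 array in every group of the sorted cells. In untreated Cdk6-/- samples the summed log2 level was 15.49 to 16.21 for HSC markers and 17.49 to 18 for granulocyte markers. It was 16.81 to 17.05 for erythroid and 14.19 to 14.65 for B cell markers. In the untreated pool these 4 sums were 15.46 to 15.64, 18.42 to 18.87, 16.51 to 17.11 and 15.29 to 15.34. The sums are over different probes and do not count cells.

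In Cdk6-/- cells the level of Irf7, the factor that amplifies type I interferon production, rose with polyI:C by 3.46 log2 units (SE 0.32, 95% interval 2.74 to 4.17, limma adjusted p = 0.0108, 3 arrays against 3). The gene lies at chr7:141263183-141266499 (GRCm38.p6). Its normalized log2 Cy5 intensity was 9.88, 9.49 and 9.24 in the untreated samples and 12.85, 13.07 and 13.06 after polyI:C. The groups did not overlap. The change ranked 6th highest of 22630 genes, of which 37 were called between treatments (0.163%), and Irf7 was the 1 member of 9 among them. Within slides 1 and 2, which hold both treatments, Irf7 differed by 3.29 and 3.58. Without polyI:C array 3 the rise was 3.42 (adjusted p = 0.0148) and without untreated array 3 it was 3.31 (adjusted p = 0.11). Leaving out untreated array 1 or 2 or polyI:C array 1 also ended the call (3.63, 3.43 and 3.53, adjusted p = 0.0785, 0.0733 and 0.0587), and in each of these 4 omissions 0 of all genes passed the limma test.

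The wild-type pools showed a difference in Irf7 of like size, given as values because each pool is 1 sample. The log2 Cy3 intensity was 9.90, 10.08 and 9.70 over the 3 hybridisations of the untreated pool and 13.39, 13.37 and 13.78 over those of the polyI:C pool. The means differed by 3.62, the 8th highest of 22505 genes. The range of a pool over its own 3 hybridisations was 0.38 untreated and 0.41 after polyI:C. The genotype ratio of Irf7, log2 of Cdk6-/- over wild type, was -0.025, -0.59 and -0.46 untreated and -0.54, -0.30 and -0.72 with polyI:C. All 6 ratios lay below 0 and the 2 sets overlapped. Neither the untreated mean of -0.36 (SE 0.18, limma adjusted p = 0.231) nor the polyI:C mean of -0.52 (SE 0.18, adjusted p = 0.246) passed. The difference between treatments was -0.16 (95% interval -0.74 to 0.41, adjusted p = 0.817). The sign of these ratios depends on the normalization. With median centring in place of loess, the median over all genes went from -0.047 to 0.30 untreated and from -0.020 to 0.21 after polyI:C. The Irf7 means were then 0.0065 and 0.24.

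Of the 9 markers of plasmacytoid dendritic cells tested, which express Irf7 constitutively, 0 were called between treatments in limma (3 had an unadjusted p under 0.05), and their median change was -0.24. Their summed log2 level in Cy5 ranged from 15.52 to 15.63 untreated and from 15.03 to 15.98 after polyI:C. Among T and NK cell markers 1 of 10 rose, the chemokine Ccl5, and the median over the list was 1.33. Of megakaryocyte and platelet markers 2 of 9 rose, the integrin chains Itga2b (3.14, adjusted p = 0.0495) and Itgb3 (3.03, adjusted p = 0.0194), with a median of 1.32. Of erythroid markers 1 of 10 fell, the anion exchanger Slc4a1 (-3.75, adjusted p = 0.0258), with a median of -1.41. Of all genes 0.163% were called between treatments. With scanner-processed signals the calls of Itga2b, Itgb3 and Slc4a1 were lost (limma adjusted p = 0.124, 0.0573 and 0.0883). Over the 6 omissions of 1 array the Itga2b call was lost in 6, those of Itgb3 and Slc4a1 in 5 each and that of Ccl5 in 4. Whether changes in the cells present contributed to the Irf7 value was not tested, and in sorted bulk samples fewer cells of a type and less RNA per cell cannot be told apart.

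**Figure D2:**
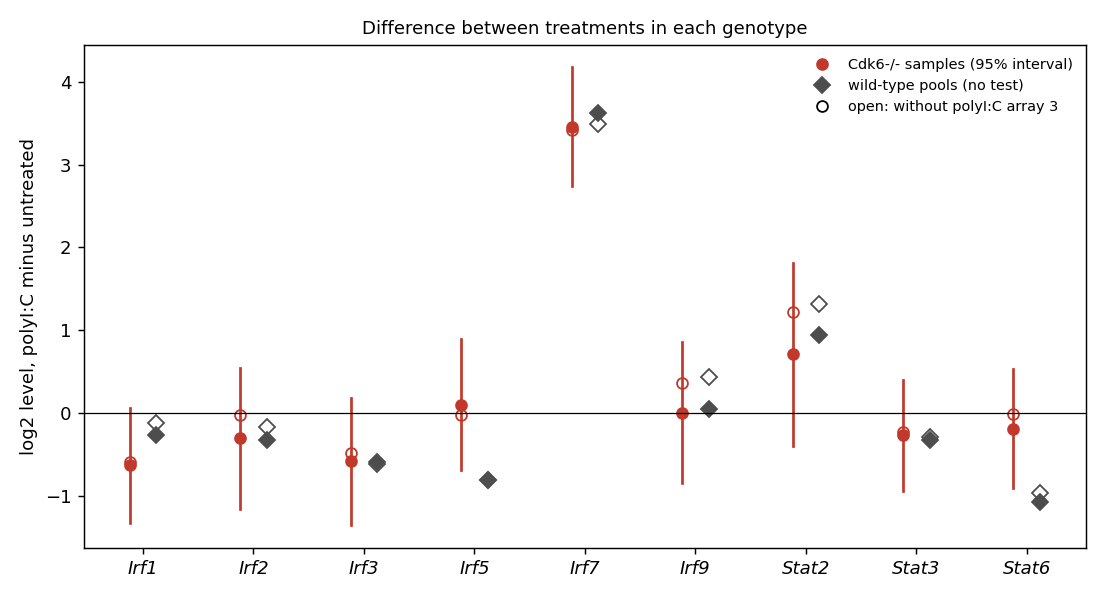
PolyI:C minus untreated log2 level of each member in Cdk6-/- samples (red, limma estimate with its 95% interval, n = 3 against 3) and in the wild-type pools (grey, difference of means over 3 hybridisations of 1 pool per treatment, no test). Open symbols leave out polyI:C array 3. Irf7 stands at 3.46 and 3.62, and Stat2 and Irf9 move up when that array is left out.

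Stat2 and Irf9, which act together in ISGF3, did not pass between treatments. The log2 Cy5 intensity of Stat2 was 9.70, 10.73 and 10.22 untreated and 11.43, 11.45 and 9.89 with polyI:C. PolyI:C arrays 1 and 2 lay above all untreated samples, while array 3 lay among them. The mean difference was 0.71 (SE 0.49, 95% interval -0.40 to 1.81, limma adjusted p = 0.722), and without polyI:C array 3 it was 1.22 (adjusted p = 0.188). The pools had Cy3 levels of 9.98, 10.71 and 10.55 untreated and 11.77, 11.68 and 10.62 after polyI:C, a difference of 0.95, or 1.32 without array 3. The same polyI:C pool read 1.16 log2 units apart between hybridisations, more than the difference of the pool means with all arrays. Within slides 1 and 2 the Cdk6-/- difference was 1.47 and 0.72.

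Irf9, the DNA-binding subunit of ISGF3, was also low on polyI:C array 3 in both channels. Its Cy5 level was 12.44, 12.59 and 12.43 untreated and 12.93, 12.77 and 11.77 with polyI:C. The mean difference was 0.0036 (SE 0.38, 95% interval -0.85 to 0.86, limma adjusted p = 0.998), against 0.36 without array 3. In the pools the Cy3 level was 12.34, 12.53 and 12.34 untreated and 12.92, 12.76 and 11.68 with polyI:C, a difference of 0.053, or 0.44 without array 3. Both channels moved together, and the genotype ratio of Irf9 was 0.11, 0.059 and 0.088 untreated and 0.010, 0.0056 and 0.090 with polyI:C. Its means of 0.085 (95% interval -0.27 to 0.44) and 0.035 (-0.32 to 0.39) did not pass, whereas with median centring the untreated mean was 0.66 and did (limma adjusted p = 0.032). The ratios of Stat2 were -0.27, 0.024 and -0.33 untreated and -0.34, -0.23 and -0.73 after polyI:C, with means of -0.19 (adjusted p = 0.519) and -0.43 (SE 0.18, adjusted p = 0.325).

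**Figure D3:**
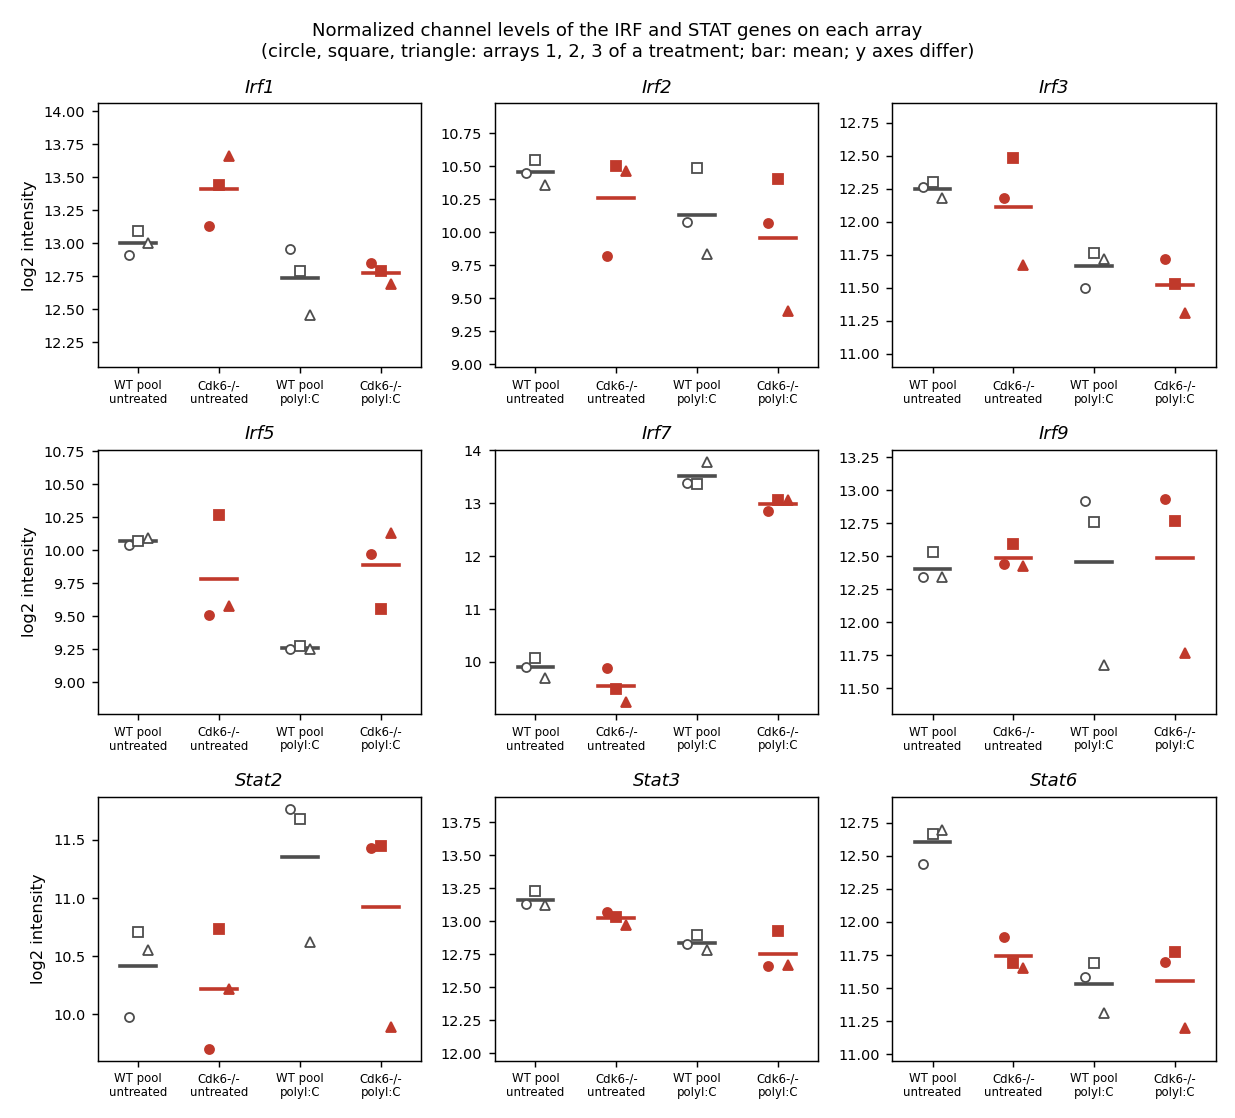
Normalized log2 intensity of the 9 genes, 1 panel each with its own y axis (log2 units). Open grey symbols are the 3 hybridisations of a wild-type pool, filled red symbols are the 3 Cdk6-/- samples, shapes give the array number within a treatment and bars are means. Irf7 separates by treatment in both genotypes, the triangle of polyI:C array 3 is the lowest point for Irf9 and among treated samples for Stat2, and Stat6 is highest in the untreated pool.

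Stat6, the IL-4 and IL-13 effector encoded at chr10:127642955-127660987 (GRCm38.p6), was the member whose level in untreated Cdk6-/- cells differed from the pool. On the probe that represents the gene its ratio was -0.55, -0.98 and -1.04 untreated, a mean of -0.86 (SE 0.17, 95% interval -1.24 to -0.47, limma adjusted p = 0.0121, n = 3), or 0.55 of the wild-type level. It was the 1 of 9 members called among untreated arrays, where 2944 of 22630 genes were (13.0%), so a count of 1 is near the background. After polyI:C the ratio was 0.12, 0.079 and -0.11, a mean of 0.031 (adjusted p = 0.963). Every untreated array lay below every polyI:C array. The difference of 0.89 (SE 0.25, 95% interval 0.34 to 1.44) did not pass (adjusted p = 0.103). Within slides 1 and 2 it was 0.92 and 1.06.

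The levels show which channel moved. In the pools Stat6 was at 12.44, 12.67 and 12.70 untreated and at 11.58, 11.69 and 11.31 after polyI:C, 1.08 lower in the treated pool. In Cdk6-/- samples it was at 11.89, 11.69 and 11.65 untreated and at 11.70, 11.77 and 11.20 after polyI:C, a difference of -0.19 (SE 0.32, limma adjusted p = 0.915). The untreated pool, which is 1 sample, was thus the high group, and the other 3 groups overlapped. Of 9 members, Stat6 and Irf5 had ratios that did not overlap between treatments, as did 22.8% of all genes.

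The 3 Stat6 probes gave different values. Fitted over the 31802 single probes, of which 12.5% were called untreated, probe A_52_P132761 was also lower in untreated Cdk6-/- cells, with ratios of -1.28, -1.17 and -0.83 (mean -1.09, SE 0.19, limma adjusted p = 0.00588). Its ratio after polyI:C was 0.30, 0.50 and -0.082, and the difference between treatments of 1.33 (SE 0.27, adjusted p = 0.0381) passed in the fit over probes, where 1.78% of probes did. It did not pass with scanner-processed signals (1.30, adjusted p = 0.111) or median centring (1.18, adjusted p = 0.11). The third probe, A_52_P114494, had ratios of -0.10, 0.43 and 0.22 untreated and -0.10, -0.24 and 0.038 after polyI:C. Neither its untreated mean of 0.18 (SE 0.18, 95% interval -0.22 to 0.58) nor its difference of -0.28 (adjusted p = 0.633) passed. All 3 probes carry the same RefSeq transcript name, and where on it each lies was not analysed here. In the untreated pool the first 2 probes read 1.08 and 1.37 higher than in the polyI:C pool, while the third read 0.13 lower. The mean over the 3 probes was -0.59 (adjusted p = 0.0308).

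**Figure D4:**
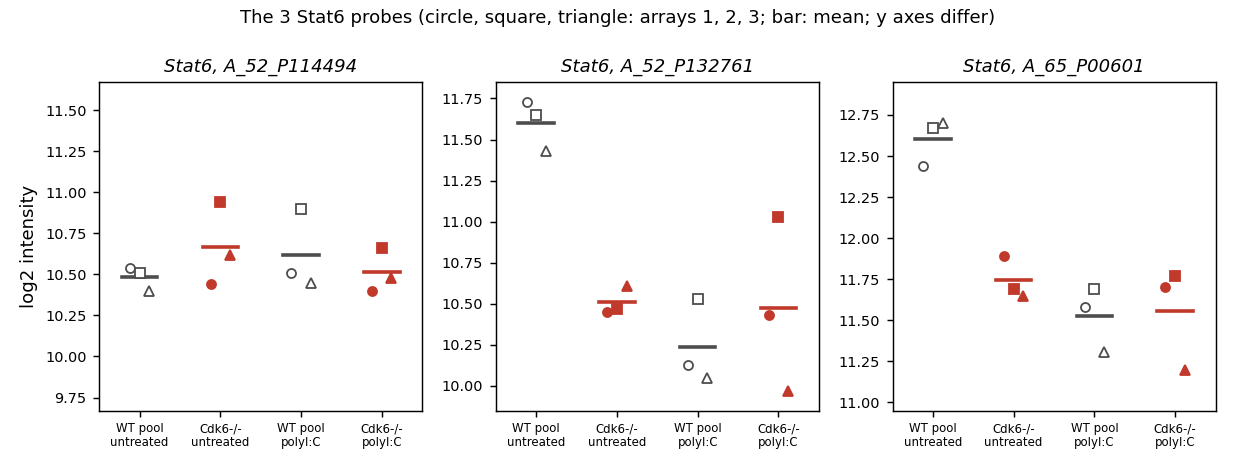
Normalized log2 intensity of the 3 Stat6 probes by group, symbols as in the plot of member levels, y axes differ. Probes A_52_P132761 and A_65_P00601 are highest in the untreated wild-type pool, and probe A_52_P114494 has overlapping groups.

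The Stat6 call was lost when untreated array 2 was left out (-0.79, adjusted p = 0.0607), when untreated array 3 was (-0.76, adjusted p = 0.0718), and with median centring (-0.32, adjusted p = 0.288). Markers of other cells were called in the same comparison too, where 9.94% of all genes were called lower and 3.07% higher. B cell markers were lower in untreated Cdk6-/- cells in 7 of 8 genes (median ratio -1.61), with a summed log2 level of 14.19 to 14.65 in Cdk6-/- samples and 15.29 to 15.34 in the pool. Granulocyte markers were lower in 4 of 10 (median -0.84) and those of monocytes and macrophages in 2 of 9 (median -0.27). Erythroid markers were lower in 3 of 10 (median -0.37), those of megakaryocytes and platelets in 2 of 9 (median -0.26) and those of T and NK cells in 2 of 10 (median -0.34). Of 9 plasmacytoid dendritic cell markers 3 were lower and 2 higher (median 0.14). Whether these cells contributed to the Stat6 value was not tested.

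Irf5, a factor of myeloid and B cells that acts downstream of Toll-like receptors, had ratios of -0.53, 0.20 and -0.51 untreated and 0.73, 0.28 and 0.87 after polyI:C. The 2 sets did not overlap. The means were -0.28 (SE 0.21, limma adjusted p = 0.405) and 0.63 (SE 0.21, 95% interval 0.17 to 1.09, adjusted p = 0.214), and the difference was 0.91 (SE 0.29, 95% interval 0.26 to 1.56, adjusted p = 0.146). None passed, and within slides the difference was 1.25 on slide 1 and 0.088 on slide 2. Over the 6 omissions of 1 array it ranged from 0.78 to 1.15. The pool level was 10.04, 10.07 and 10.09 untreated and 9.25, 9.27 and 9.25 with polyI:C, 0.81 lower in the treated pool. In Cdk6-/- samples it was 9.51, 10.27 and 9.58 untreated and 9.97, 9.55 and 10.13 with polyI:C, with overlapping groups and a difference of 0.10 (adjusted p = 0.962). With median centring the polyI:C ratio of Irf5 was 0.82 and passed (adjusted p = 0.0298). Beside it, monocyte and macrophage markers had a median ratio of 0.70 after polyI:C, with 0 of 9 called in limma and 6 at an unadjusted p under 0.05. Their part in the Irf5 value was not tested.

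Irf1, an activator induced by interferon gamma through GAS sites, had ratios of 0.23, 0.34 and 0.67 untreated, all above 0, and -0.11, 0.0039 and 0.23 after polyI:C. Its untreated mean of 0.41 (SE 0.17, limma adjusted p = 0.148) and its polyI:C mean of 0.042 (adjusted p = 0.946) did not pass. Over the 6 omissions of 1 array the untreated mean ranged from 0.29 to 0.51. The Cy5 level of Irf1 was 13.13, 13.44 and 13.66 untreated and 12.85, 12.79 and 12.69 with polyI:C. These groups did not overlap, but the difference of -0.63 (SE 0.31, 95% interval -1.33 to 0.063) did not pass (adjusted p = 0.538). In all, 3 of 9 members (Irf1, Irf7 and Stat3) had Cy5 levels that did not overlap between treatments, against 16.9% of all genes. The second Irf1 probe varied more, with ratios of 1.30, -0.55 and 0.20 untreated and 0.37, -0.42 and 0.58 after polyI:C. With median centring the Irf1 ratio passed in both treatments (1.11, adjusted p = 0.00198, and 0.69, adjusted p = 0.0454).

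Irf3, the constitutive factor activated first after viral RNA is sensed, had ratios of -0.081, 0.18 and -0.52 untreated and 0.23, -0.23 and -0.41 after polyI:C. The sets overlapped around means of -0.14 in both treatments, and the difference was 0.0015 (95% interval -0.63 to 0.63, limma adjusted p = 0.999). The difference in its level between treatments was -0.59 in the Cdk6-/- samples (SE 0.34, adjusted p = 0.635) and also -0.59 in the pools. Irf2, which competes with IRF1 and dampens interferon responses in HSCs, had ratios of -0.63, -0.056 and 0.10 untreated and -0.010, -0.090 and -0.43 after polyI:C. Its means of -0.19 and -0.18 did not pass (adjusted p = 0.561 and 0.746). Its level differed between treatments by -0.31 in Cdk6-/- samples (adjusted p = 0.874) and by -0.32 in the pools.

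Stat3, which carries IL-6 and G-CSF signals and also supports HSC maintenance was read by a probe printed 10 times on the array. Its ratios were -0.061, -0.20 and -0.15 untreated and -0.17, 0.032 and -0.11 after polyI:C. The means of -0.13 (95% interval -0.49 to 0.22, limma adjusted p = 0.628) and -0.083 (adjusted p = 0.866) did not pass. Its Cy5 level was 13.07, 13.03 and 12.97 untreated and 12.66, 12.93 and 12.67 with polyI:C, a difference of -0.27 (SE 0.30, adjusted p = 0.851). The second Stat3 probe gave a difference of 0.075, with the other sign and also not past the threshold.

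Over the 9 members the median ratio was -0.19 untreated and -0.083 after polyI:C, against -0.047 and -0.020 for all genes. After polyI:C 0 of 9 were called in limma, where 0.981% of all genes were. An unadjusted p under 0.05 was reached by 3 of the 9 (Irf5, Irf7 and Stat2) and by 3042 of the 22630 genes. In the difference between treatments 0 of 9 were called over genes, against 1.81% of all genes, with 2 (Stat6 and Irf5) at an unadjusted p under 0.05, as were 3737 of the 22630 genes. The median change with polyI:C in Cdk6-/- cells was -0.19 against 0.033 for all genes, with 4 members above 0 and 5 below.

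**Figure D5:**
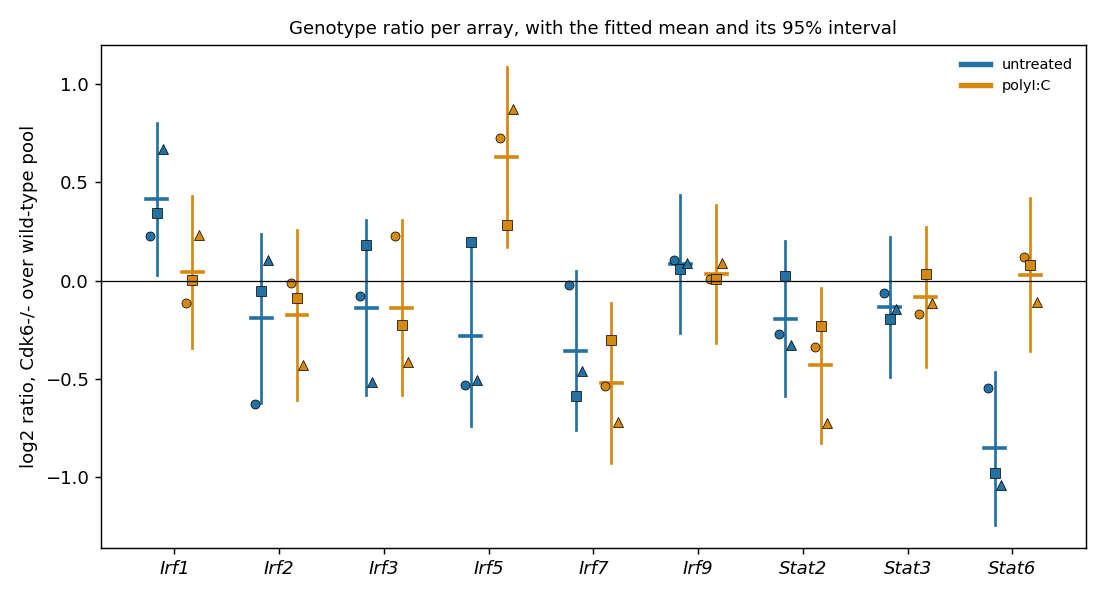
Log2 ratio of Cdk6-/- over the wild-type pool for each member on each array (y axis), untreated in blue and polyI:C in orange. Shapes give the array number within a treatment, horizontal bars the fitted mean and vertical lines its 95% interval (limma, n = 3). The untreated interval of Stat6 runs from -1.24 to -0.47, and Irf5 is the other gene whose 2 sets of points do not overlap.

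Of the other family members, 5 are described here. Irf8, needed for monocytes, dendritic cells and B cells, was lower in untreated Cdk6-/- cells at -0.98 (SE 0.26, limma adjusted p = 0.0349) with ratios of -0.71, -0.59 and -1.65, and after polyI:C its ratios were 0.14, 0.51 and 1.25. The difference of 1.62 (SE 0.37) did not pass (adjusted p = 0.0597). Between treatments the level of Irf8 differed by -1.97 in the pools and by -0.35 in Cdk6-/- samples (adjusted p = 0.891). The untreated call was lost when polyI:C array 2 or any single untreated array was left out, at values from -1.18 to -0.65 over all 6 omissions. It was also lost with scanner-processed signals (-0.97, adjusted p = 0.0778), median centring (-0.54, adjusted p = 0.137), no filter on dim probes (-0.98, adjusted p = 0.0615) and the slide as a random block (-0.91, adjusted p = 0.0616). Irf4, a factor of lymphocytes and dendritic cells, had an untreated ratio of -0.84 (adjusted p = 0.0647) and was not well above background in Cy3 on 2 of the 3 polyI:C arrays. Stat4, Stat5a and Stat5b had untreated ratios of 0.53, 0.17 and -0.10 and did not pass in any comparison with all arrays and loess. The untreated ratio of Stat4 passed with median centring (0.92, adjusted p = 0.0113) and without polyI:C array 3 (0.53, adjusted p = 0.0384).

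Upstream of the members, called genes are given beside the shares of all genes called: 13.0% untreated, 1.81% for the difference and 0.163% for treatment. Of 9 interferon receptor and JAK genes 2 were lower in untreated Cdk6-/- cells: Il10rb, a chain shared by the receptors of IL-10 and interferon lambda, at -0.94 (limma adjusted p = 0.0108), and Ifnlr1, the other chain for interferon lambda, at least 1.74-fold lower (adjusted p = 0.0312) and not well above background in Cdk6-/- cells. Both calls were lost when untreated array 2 or 3 was left out. The median ratio of these 9 genes was -0.053 untreated and -0.15 after polyI:C. Of 10 tested kinases, adaptors and sensors that activate IRFs (of 13 listed), the RNA sensor Ifih1 was higher in untreated Cdk6-/- cells at 0.68 (adjusted p = 0.0326), and its ratio was lower after polyI:C than untreated (difference -1.26, adjusted p = 0.0388). With scanner-processed signals neither Ifih1 value passed (adjusted p = 0.0539 and 0.0802), with median centring the difference did not (adjusted p = 0.149), and the calls were lost in 4 and in 6 of the 6 omissions of 1 array. Among 10 inhibitors of JAK-STAT signalling, Usp18, which blocks the type I interferon receptor, rose with polyI:C by 2.74 (SE 0.31, adjusted p = 0.0187), with a median of 0.15 over the list. The Usp18 call was lost with scanner-processed signals (adjusted p = 0.052) and in all omissions of 1 array but that of polyI:C array 3.

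Downstream, the 22 tested of 24 genes known to be driven by ISREs had a median change with polyI:C of 1.30 in Cdk6-/- cells, against 0.033 for all genes. All 22 estimates were above 0, and 0 passed in limma over all genes. An unadjusted p under 0.05 was reached by 17 of them and by 2325 of the 22630 genes. The list was chosen with earlier results of these data known. The summed log2 level of its genes in Cy5 was 15.73 to 15.94 untreated and 16.86 to 17.38 after polyI:C. The lowest treated sum lay above the highest untreated one, array 3 included, where Stat2 and Irf9 were low. Of 12 genes driven by IRF1 and GAS, the chemokine Cxcl9 rose by 2.71 (SE 0.32, adjusted p = 0.0208), and the median was 0.84 with 12 of 12 above 0. The Cxcl9 call was also lost in all omissions but that of polyI:C array 3.

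Among untreated arrays 3.07% of all genes were called higher and 9.94% lower in Cdk6-/- cells. Between genotypes the ISRE-driven genes had a median ratio of 0.17 untreated, with 3 of 22 higher (Herc6 1.15, Eif2ak2 0.67 and Oasl1 0.66) and 1 lower (Ifi27l2a -1.21). Of these, Herc6 kept its call in all 6 omissions of 1 array, Ifi27l2a in 4, and Eif2ak2 and Oasl1 in 2 each. After polyI:C the median was -0.35, 21 of 22 estimates were below 0 and 1 passed, the mitochondrial nucleotide kinase Cmpk2 at -0.92 (limma adjusted p = 0.0343). That call was lost with scanner-processed signals (adjusted p = 0.119), with median centring (adjusted p = 0.438) and in all omissions of 1 array but that of untreated array 2. With median centring the polyI:C median was 0.28, beside 0.21 for all genes, so its sign depends on the normalization. The difference between treatments had a median of -0.47, with Herc6 (-1.86, adjusted p = 0.0171) and the RNA-activated kinase Eif2ak2 (-1.13, adjusted p = 0.0455) lower. With median centring it was -0.25 against -0.046 for all genes. The Herc6 difference was no longer called in 4 of the 6 omissions, and the Eif2ak2 difference in all 6, with scanner-processed signals (adjusted p = 0.0659) and with median centring (adjusted p = 0.0795).

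STAT3 target genes had a median ratio of 0.65 after polyI:C, against -0.020 for all genes, with 10 of 11 above 0. In this list 1 passed, the immediate early gene Fos at 0.92 (limma adjusted p = 0.0351), where 0.981% of all genes did. The summed log2 level of the list was 15.55 to 15.63 in the untreated pool and 15.03 to 15.15 in the polyI:C pool. In Cdk6-/- samples it was 15.41 to 15.71 untreated and 15.46 to 15.5 after polyI:C. The Fos call was lost with scanner-processed signals (adjusted p = 0.105) and in all omissions but that of untreated array 2. STAT6 targets were 5 tested of 9, since Arg1, Retnla, Ccl22 and Cdh1 did not pass the filter on dim signal. Chil3, a chitinase-like protein that is also abundant in granulocytes and macrophages, was lower in untreated Cdk6-/- cells at -1.29 (adjusted p = 0.00568), and its ratio was higher after polyI:C by 2.39 (adjusted p = 0.0119). Granulocyte markers moved with Chil3: the ratio of 5 of 10 was higher after polyI:C, with a median difference of 1.69. With scanner-processed signals 0 of the 10 were called in limma (9 had an unadjusted p under 0.05), with median centring 3, and over the omissions of 1 array 0 to 7. The summed log2 level of the granulocyte markers was 18.42 to 18.87 in the untreated pool and 16.66 to 17.11 in the polyI:C pool. In Cdk6-/- samples it was 17.49 to 18 untreated and 17.39 to 17.78 after polyI:C. The untreated Chil3 call was lost with median centring (-0.32, adjusted p = 0.341) and the call of its difference without polyI:C array 3. Whether these cells contributed was not tested.

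The genes whose levels over the 12 channels (6 arrays, 2 genotypes) were most like Irf7 were Usp18 (Pearson r = 0.994), Ccl5 (0.989), Tgfb1 (0.987), Cxcl9 (0.983) and Kcnj5 (0.982), out of 13559 named genes. Most like Irf9 were Gm5039 (0.991), Rbm45 (0.973), BC005537 (0.961), Mapre1 (0.957) and Dyrk3 (0.955). Most like Stat2 were Trim30a (0.978), Tyw1 and Mrpl15 (both 0.97), and Parp2 and Mthfd1 (both 0.969). The 12 values share arrays, pools and treatment and are not independent, so these correlations are descriptions. The genes were picked over these same levels, so their differences between treatments follow in part from that choice and are no separate result. In Cdk6-/- cells these estimates were 1.71 or more for the 5 genes like Irf7 and between -0.16 and 0.20 for the 5 like Irf9. For the 5 like Stat2 they were between 0.37 and 0.74.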

How the data were processed

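RNA from HSCs was amplified by whole transcriptome amplification and labelled with platinum dyes, per the labels' protocols. Arrays were read with Agilent Feature Extraction 11.5.1.1 and annotated on mm9, per the file headers. For every spot the deposited scanner files give a median intensity, a median background, processed signals (also an intensity), a log10 ratio used as a check of direction, and flags (other). The deposited value table is in log2, and it matches log2 of the processed Cy5 over Cy3 signals to within 2.5e-06, with no further centring. The planned mean signals were not in these files, so median signals were used.

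Background was corrected by normexp with an offset of 50, and each array's ratios were loess-normalized. The tools were limma 3.58.1, statmod 1.5.0 and R 4.3.3. Control spots were left out, and so were outlying or non-uniform spots (0.657% of the others). Of 55681 probes, 31802 were well above background in a channel on all 3 arrays of a group and were tested, and 23879 were not. A gene was represented by its brightest probe (22630 genes, 13636 with a symbol). RefSeq (GRCm38.p6) named 22244 of 23839 accessions. Ratios were tested with lmFit and eBayes over all 6 arrays (4 residual degrees of freedom). Treatment was tested on Cy5 levels after quantile normalization of average intensities. P-values are adjusted by Benjamini and Hochberg over all genes, with a threshold of 0.05, and intervals are 95%. The scripts were tested on simulated data. An exact permutation test of 3 against 3 arrays cannot go below p = 0.1, so none was used, and signal near background and the number of arrays limit precision. Array numbers follow accession order and pair no samples. No paper was used.

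All 9 members are named with every probe. Of each pathway list, up to 4 genes past the threshold with the largest change are named, and for Irf7, Irf9 and Stat2 the 5 genes most like each. Some other family members are not reported here. Members and lists were chosen with earlier results of these data known. Alternatives were other background correction, normalization, filters and probe summaries, the slide as a block, array weights and leaving out each array.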

Additional observations from a re-analysis of the deposited data

Results flagged for a closer look

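Probe A_52_P132761 of Stat6 had a genotype ratio that differed between treatments by 1.33 log2 units (limma adjusted p over all tested probes = 0.0381), lower in Cdk6-/- cells on all 3 untreated arrays and higher on 2 of 3 polyI:C arrays. Of the other probes of Stat6, one moved by 0.89 (adjusted p = 0.107) and the other by -0.28 (adjusted p = 0.633). The 1.33 did not pass with scanner-processed signals (1.30, adjusted p = 0.111) or with median centring (1.18, adjusted p = 0.11). Irf8 was below 0 on all 3 untreated arrays and above 0 on all 3 polyI:C arrays, with a difference of 1.62 that did not pass over genes (limma adjusted p = 0.0597). With array weights (1.48, adjusted p = 0.0237) or the mean over probes (1.62, adjusted p = 0.0498) the difference passed. The ratios of Irf8 did not overlap between treatments, as was so for 22.8% of all genes. The level of Irf8 differed between treatments by -1.97 in the pools, each 1 sample, and by -0.35 in Cdk6-/- samples.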

How the results depend on the processing

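The rise of Irf7 with polyI:C kept its direction in every alternative run, from 3.29 within slide 1 to 3.65 with median centring, and its call in every tested alternative except the 4 omissions of an array named above. On the probe that represents the gene, or as the mean over probes, the untreated Stat6 ratio was below 0 in every alternative (-1.01 to -0.32). Probe A_52_P114494 of Stat6 was above 0 untreated, at 0.18, and at 0.32 with scanner-processed signals and 0.58 with median centring.

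Counts of genes called depended on the setting. Scanner-processed signals gave 33 after polyI:C, 176 for the difference and 19 for treatment. Median centring gave 6196 untreated (4863 higher, 1333 lower, against 694 and 2250), 2571 after polyI:C (2333 and 238, against 74 and 148), 241 for the difference and 65 for treatment, with 2 members called untreated and 2 after polyI:C. With no filter on dim probes the counts were 94, 253 and 16 (polyI:C, difference, treatment). The slide as a random block gave 126 for treatment, and as a fixed block 17 for treatment and 0 for the difference (4437 at unadjusted p under 0.05 in limma). Array weights gave 2646 after polyI:C and 1313 for the difference, with 1 member, Stat6 (0.92). Median scaling between arrays, which moved the median of all genes by 0.14, gave 57 for treatment. Leaving out 1 array gave 1377 to 3427 genes untreated, 7 to 219 after polyI:C, 6 to 375 for the difference and 0 to 23 for treatment, with 0 to 1 members untreated and for treatment and 0 otherwise.

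The signs of some values, none of them called in the first setting, turned. They include the polyI:C ratio of Irf7, at -0.52 in that setting (95% interval -0.93 to -0.11). With median centring the untreated ratios were Irf2 0.20, Irf3 0.40, Irf5 0.090, Irf7 0.0065, Stat2 0.19, Stat3 0.54 and Stat5b 0.41. The polyI:C ratios were Irf2 0.074, Irf3 0.27, Irf7 0.24, Stat3 0.57, Stat4 0.21, Stat5a 0.32 and Stat5b 0.077. The differences were Irf2 -0.12, Irf3 -0.13 and Irf7 0.23. The difference was -0.095 for Irf2 with processed signals and -0.038 for Stat3 with the mean over probes. Array weights gave polyI:C ratios of -0.012 for Irf1, 0.20 for Stat4 and 0.040 for Stat5a. The treatment change was -0.058 for Irf5 with the slide as a fixed block and 0.031 for Stat6 with median scaling. Leaving out 1 array turned the sign, with these ranges over the 6 omissions, of Irf2 (-0.34 to 0.024) and Irf3 (-0.30 to 0.050) untreated. It did so of Irf1 (-0.054 to 0.12), Irf3 (-0.32 to 0.00014), Stat6 (-0.015 to 0.10), Stat4 (-0.16 to 0.26), Stat5a (-0.15 to 0.049) after polyI:C. It did so of Irf2 (-0.20 to 0.16), Irf3 (-0.19 to 0.16), Irf7 (-0.28 to 0.0021), Stat3 (-0.0066 to 0.094) for the difference. It did so of Irf5 (-0.037 to 0.34), Irf9 (-0.22 to 0.36), Irf8 (-0.77 to 0.012), Stat5a (-0.025 to 0.56) for treatment. The cause was not tested.

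No paired analysis was possible because the labels give no replicate numbers that tie samples across groups. With 3 samples a group, 1 pool per treatment and no dye swap the precision is limited.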
